A study of Mus musculus with 6 samples.

Results

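The BCL2 family decides whether a cell's mitochondria release the proteins that start apoptosis. Its survival proteins (Bcl2, Bcl2l1, Mcl1 and the Bcl2a1 paralogs) hold in check the effectors Bax and Bak1, which form pores in the outer mitochondrial membrane. The BH3-only proteins (Bbc3, Pmaip1 and Bcl2l11) bind the survival proteins and set the effectors free. Spermatogonia depend on this balance: in mice, loss of Bax leaves too many germ cells and disturbs spermatogenesis.

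The 10 genes described here were chosen by name as a textbook set of this family, with earlier results of these data known. All 10 were found among the 31384 genes of the count table. They are measured in RNA libraries of a mouse spermatogonial stem cell line, 2 libraries in each of 3 groups. In the LOVA group, GDNF was replaced by 5 uM lovastatin, a statin that blocks HMG-CoA reductase. In the NTC group GDNF was left out with nothing in its place. In the PTC group the medium held 10 ng/mL GDNF, the growth factor that sustains these stem cells. All groups received EGF, LIF and FGF2, grew on mouse embryonic fibroblasts stopped with mitomycin C, and were collected on day 18. Each group has a library A and a library B, letters taken from the column names. Whether A and B came from separate cultures is not given in the sources used here, so p-values measure only the spread between these libraries, which may be technical.

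Total counts lay between 12454671 and 22668087 per library. Germ cell markers were present in every library: 23 pan-germ-cell genes together took 0.421% and 0.229% of counts in the LOVA libraries (A, then B), 0.362% and 0.238% in NTC, and 0.620% and 0.616% in PTC. Markers of the fibroblast feeders, 19 genes, took 1.73% and 3.29% in LOVA, 1.95% and 3.24% in NTC, and 0.180% and 0.689% in PTC. Markers of macrophages, 14 genes, took 0.0464% and 0.0557% in LOVA, 0.212% and 0.265% in NTC, and 0.0325% and 0.0274% in PTC. None of these markers was at 0 in every library. In such mixed RNA, fewer cells of a type and less RNA per cell cannot be told apart.

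Bcl2a1b and Bcl2a1d are copies of 1 gene, known as A1, on mouse chromosome 9. Bcl2a1b (ENSMUSG00000089929, build GRCm38) lies from 89199209 to 89207827 on the plus strand and Bcl2a1d (ENSMUSG00000099974) from 88723285 to 88731914 on the minus strand. Their annotated transcripts, of 817 and 863 bases, were identical at 99.1% of aligned bases. Of all stretches of 150 bases, the read length per the labels, 14.2% of those in the Bcl2a1b transcript and 30.3% of those in the Bcl2a1d transcript also occur in another Bcl2a1 transcript, so the split of reads between the copies is uncertain. Their promoters, from 250 bases before to 50 bases after each RefSeq start site, are shown because these near-identical copies hold the lowest counts among the survival genes beside Bcl2 and both had their highest values in NTC. Bases in capitals mark GAGGAAGT, the binding motif of PU.1, a transcription factor of macrophages and other myeloid cells encoded by Spi1.
Bcl2a1b, chr9:89199023-89199322, plus strand: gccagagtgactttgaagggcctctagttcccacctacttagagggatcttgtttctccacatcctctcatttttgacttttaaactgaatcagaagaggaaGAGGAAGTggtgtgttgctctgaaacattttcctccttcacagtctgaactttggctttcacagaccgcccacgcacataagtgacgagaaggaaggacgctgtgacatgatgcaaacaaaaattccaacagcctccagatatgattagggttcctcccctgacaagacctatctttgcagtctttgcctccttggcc
Bcl2a1d, chr9:88731801-88732100, minus strand: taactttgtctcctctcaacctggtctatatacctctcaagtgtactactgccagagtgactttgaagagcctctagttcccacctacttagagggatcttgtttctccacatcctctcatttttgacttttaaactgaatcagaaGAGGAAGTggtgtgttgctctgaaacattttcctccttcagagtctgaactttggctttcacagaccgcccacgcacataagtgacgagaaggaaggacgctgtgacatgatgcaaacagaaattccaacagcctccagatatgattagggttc
Where the windows align, 247 bases were identical and 3 differed, beside 100 gap bases. Bcl2a1b has an extra gaggaa directly before the marked motif, which Bcl2a1d lacks there. The motif starts 148 bases before the start site of Bcl2a1b and 104 bases before that of Bcl2a1d. Searched on both strands, it occurs in 3.2% of the 32851 RefSeq promoter windows, which hold windows of 9 of the 10 genes. Among those 9 genes, Bak1 was the only other with a match. The same windows were searched on both strands for 3 more motifs. The p53 half-site consensus (8.36% of all windows) was found in Bax, the NF-kB consensus (4.51%) in Bcl2l1 and Bbc3, where matches overlap each other, and the FOXO motif GTAAACA (3.65%) in Bbc3 and Bcl2l11. Binding was not measured, and a match is a description of these letters.

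Genes can be compared in level only per length, here as TPM, a count divided by length and scaled to the library, over the union of a gene's annotated exons. Bax was the most abundant of the family in every group, at 319 ± 10.8 TPM in LOVA, 359 ± 3.50 TPM in NTC and 280 ± 8.76 TPM in PTC (SD, n = 2 each). Mcl1, a short-lived survival protein, came next at 239 ± 38.1, 265 ± 26.7 and 157 ± 17.2 TPM in the same groups. Bcl2l1, which encodes BCL-XL, followed at 81.3 ± 0.667 TPM in LOVA, 90.7 ± 1.64 TPM in NTC and 86.3 ± 0.568 TPM in PTC. Bcl2, the gene that names the family, was among the lowest at 1.63 ± 0.687 TPM in LOVA, 1.56 ± 0.136 TPM in NTC and 0.410 ± 0.132 TPM in PTC. Between them lay Pmaip1, with levels in single libraries from 39.2 to 55.6 TPM, and Bak1, from 4.42 to 51.7 TPM. In PTC libraries Bcl2l11, Bak1 and Bcl2a1b lay close together, at 6.47 ± 0.289, 6.34 ± 2.71 and 6.32 ± 0.145 TPM, and their order there did not exceed the spread. The exon union overstates the length of genes with many isoforms, which lowers their TPM.

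NTC against PTC asks what the family did when GDNF was left out. The pore former Bak1, the survival genes Bcl2a1b, Bcl2 and Mcl1, the BH3-only gene Bcl2l11 and the effector Bax rose in NTC, from 1.55-fold for Bax to 8.93-fold for Bcl2a1b. None fell. Thus 6 of the 10 genes were called, all higher, against 34.5% of all 16121 genes tested called in either direction and 21.5% called higher (edgeR quasi-likelihood test, Benjamini-Hochberg adjusted p under 0.05 over all genes tested). The median log2 fold change of the 10 genes was 1.07 (1.03 over the 9 genes other than Bcl2a1d), and that of all genes tested was -0.02. The 2 groups did not overlap in CPM (counts relative to the library total, scaled by TMM) for 9 of the 10 genes, against 77.6% of all genes tested. That count includes Bcl2a1d, which passed the filter on low counts only through NTC, where it is high.

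**Figure D1:**
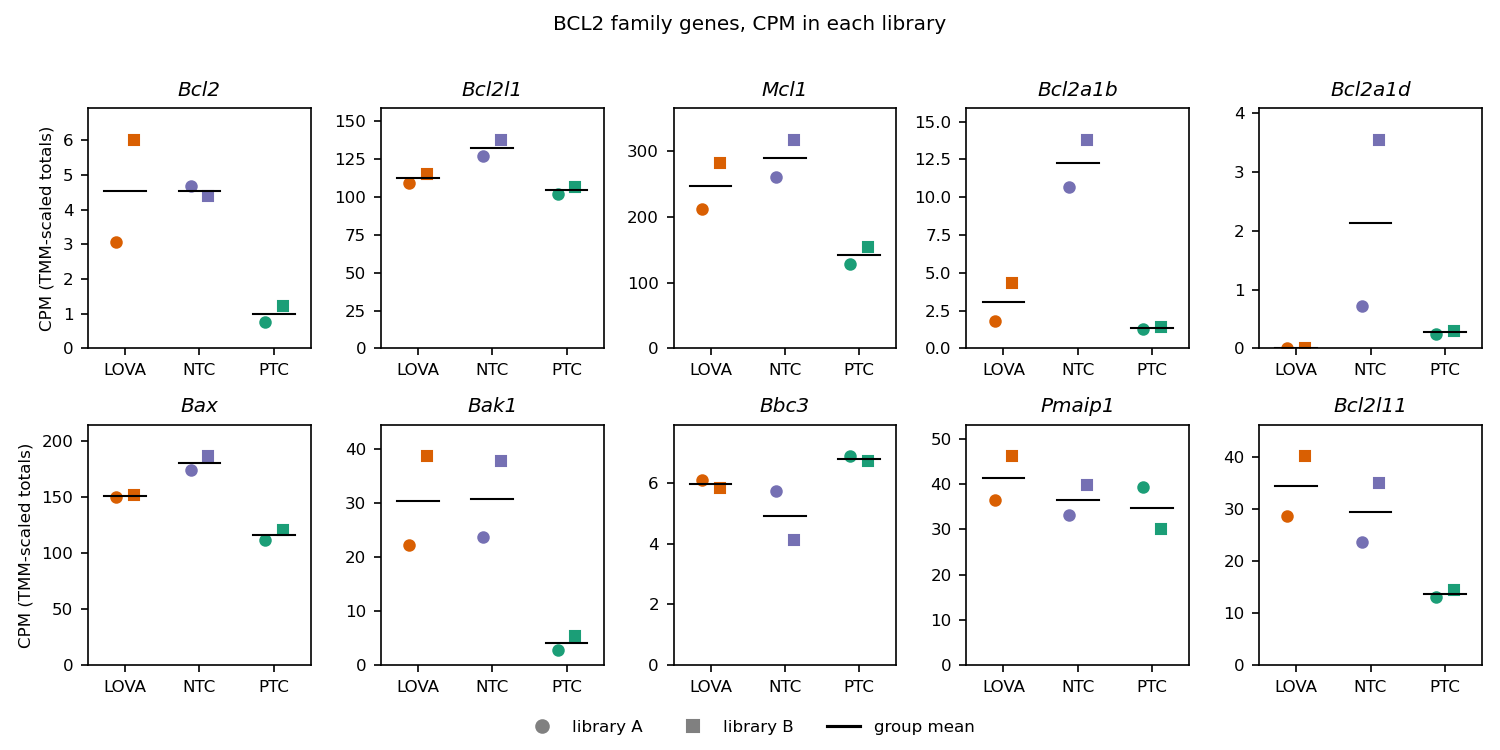
CPM of each of the 10 genes (y axis, from 0, a scale of its own in each panel) in the LOVA, NTC and PTC libraries; circles are A libraries, squares B libraries and lines group means. Bak1 was at 22.2 CPM or more in the 4 libraries without GDNF and at 5.33 CPM or less in PTC, while Bcl2a1b was high in NTC alone.

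Among the survival genes, Bcl2a1b had 10.7 and 13.8 CPM in NTC A and B, against 1.32 and 1.41 CPM in PTC A and B, 3.16 higher on the log2 scale (SE 0.49, adjusted p = 0.0102). Bcl2a1d had 9 and 55 counts in NTC, against 4 and 7 counts in PTC, and did not pass the test (2.92, SE 0.97, adjusted p = 0.062). It passed the filter on low counts only through its NTC libraries, and without NTC B it could not be tested. Both NTC libraries lay above both PTC libraries in each copy. Summing all 4 Bcl2a1 paralogs gave 143 and 279 counts in NTC, against 25 and 40 in PTC, and the sum was called higher (3.16, adjusted p = 0.00947).

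Bcl2, which holds BAX and BH3-only proteins, had 4.70 and 4.38 CPM in NTC, against 0.753 and 1.24 CPM in PTC. It rose by 2.16 on the log2 scale (SE 0.50, adjusted p = 0.0212), with only 12 and 29 counts in PTC A and B. Mcl1 had 260 and 317 CPM in NTC, against 128 and 155 CPM in PTC, and rose by 1.03 (SE 0.21, adjusted p = 0.0165). Bcl2l1 differed little, with 127 and 138 CPM in NTC, against 102 and 107 CPM in PTC. Its groups did not overlap, yet the change of 0.34 (95% interval -0.02 to 0.71, adjusted p = 0.119) did not pass the test.

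The effectors moved by unequal amounts. Bak1, which sits in the mitochondrial membrane before any death signal, had 23.7 and 37.7 CPM in NTC, against 2.76 and 5.33 CPM in PTC, a rise of 2.91 on the log2 scale (SE 0.45, adjusted p = 0.0102). Bax, which moves there from the cytosol, had 174 and 186 CPM in NTC, against 112 and 121 CPM in PTC, a rise of 0.63 (SE 0.15, adjusted p = 0.023). Both NTC libraries exceeded both PTC libraries in either gene. Bak1 overlaps the gene Ggnbp1 on the opposite strand, which had 647 counts over all libraries against 1812 for Bak1. The library kit keeps strand, per the labels, but whether counting used it is not given in the sources used here.

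The BH3-only genes did not move together. Bcl2l11, which encodes BIM, had 23.7 and 35.1 CPM in NTC, against 13.0 and 14.4 CPM in PTC, and rose by 1.10 (SE 0.28, adjusted p = 0.0269). Bbc3, which encodes PUMA and is induced by p53, had 5.74 and 4.13 CPM in NTC, against 6.90 and 6.73 CPM in PTC. Its change of -0.47 (95% interval -1.23 to 0.29, adjusted p = 0.283) did not pass the test, although the groups did not overlap. Pmaip1, which encodes NOXA, an antagonist of MCL1 and A1, had 33.1 and 39.9 CPM in NTC, against 39.4 and 30.2 CPM in PTC. The groups overlapped (0.07, 95% interval -0.48 to 0.62, adjusted p = 0.825).

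With 1 library of NTC or PTC left out, fewer genes were called over the whole table. The genes called without LOVA A, LOVA B or NTC A include Bcl2a1d. That gene passed the filter on low counts only through NTC, where it is high. Without NTC B 0 of the 9 family genes then tested were called, with 0.00598% of all genes called, while the log2 fold changes were 2.96 for Bcl2a1b, 2.54 for Bak1, 2.22 for Bcl2, 0.88 for Mcl1, 0.79 for Bcl2l11 and 0.58 for Bax. Without PTC A 2 were called, Bak1 and Bcl2a1b, with 8.42% of all genes called. Without LOVA A or LOVA B 7 were called (39.3% and 39.8% of all genes), without NTC A 5 and without PTC B 4 (16.5% in each case).

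**Figure D2:**
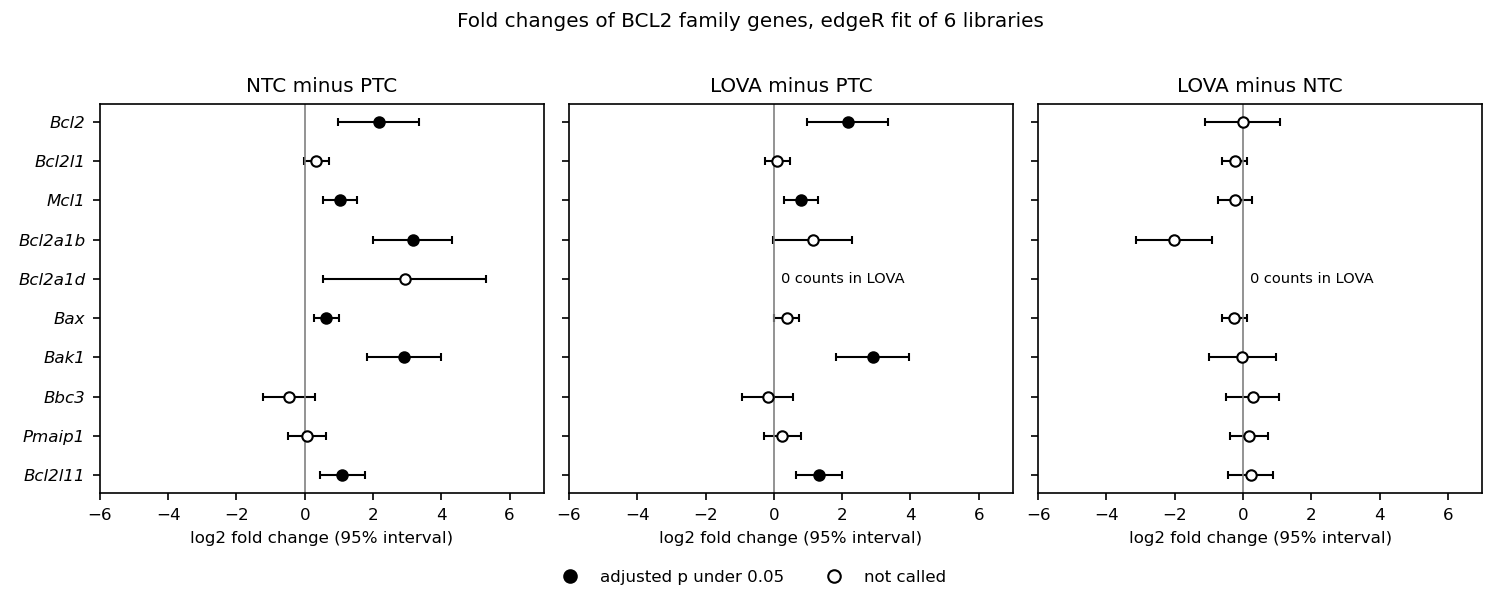
Log2 fold changes with 95% intervals (x axis) of the 10 genes for NTC minus PTC, LOVA minus PTC and LOVA minus NTC, from 1 edgeR fit; filled circles passed an adjusted p of 0.05. Bak1, Bcl2, Mcl1 and Bcl2l11 are filled in both contrasts against PTC, and no circle is filled in LOVA minus NTC; Bcl2a1d has no interval where LOVA is at 0 counts.

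LOVA against PTC asks how cells with lovastatin in place of GDNF compare with cells on GDNF. Bak1, Bcl2, Bcl2l11 and Mcl1 rose in LOVA, from 1.74-fold for Mcl1 to 7.42-fold for Bak1, and no family gene was called lower. These 4 of 10 genes stood against 30.6% of all genes tested called in either direction and 19.8% called higher. The median log2 fold change of the family was 0.59 (0.80 over the 9 genes other than Bcl2a1d), and that of all genes tested was 0.00. The CPM of the 2 groups did not overlap for 9 of the 10 genes, against 76.3% of all genes tested. This contrast and NTC minus PTC share the PTC libraries, so their values are not independent.

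Bak1 had 22.2 and 38.6 CPM in LOVA A and B, against 2.76 and 5.33 CPM in PTC (2.89, SE 0.45, adjusted p = 0.0167). Bcl2 had 3.06 and 6.02 CPM in LOVA, against 0.753 and 1.24 CPM in PTC (2.16, SE 0.50, adjusted p = 0.0252). Bcl2l11 had 28.7 and 40.2 CPM in LOVA, against 13.0 and 14.4 CPM in PTC (1.33, SE 0.28, adjusted p = 0.022). For these genes both LOVA libraries lay above both PTC libraries, and the B library was the higher of the LOVA pair. Mcl1 had 211 and 282 CPM in LOVA, against 128 and 155 CPM in PTC (0.80, SE 0.21, adjusted p = 0.0324). The call of Mcl1 was lost in 6 of 14 alternatives, among them the fit of the compared groups alone (0.81, adjusted p = 0.052) and the fits without NTC A (0.78, adjusted p = 0.0561) or NTC B (0.80, adjusted p = 0.055).

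Bax had 150 and 152 CPM in LOVA, against 112 and 121 CPM in PTC, and its change of 0.38 (95% interval 0.02 to 0.74) had an unadjusted p of 0.0423 in the edgeR fit that did not survive adjustment (adjusted p = 0.0959). Bcl2a1b had 1.78 and 4.30 CPM in LOVA, against 1.32 and 1.41 CPM in PTC (1.14, 95% interval -0.02 to 2.30, adjusted p = 0.113), and its change was 1.64 without LOVA A (adjusted p = 0.0217, called) and 0.38 without LOVA B (adjusted p = 0.618). Bcl2l1, Pmaip1 and Bbc3 had log2 fold changes of 0.10, 0.25 and -0.19, with 95% intervals of -0.26 to 0.47, -0.30 to 0.80 and -0.95 to 0.57. Bcl2a1d had 0 counts in both LOVA libraries, against 4 and 7 counts in PTC. That is at least 2.55-fold lower with the LOVA group set to a floor of 3 counts, a bound on counting error only. The split of reads between the near-identical copies is uncertain. The copy Bcl2a1a had 7 and 1 counts in LOVA, against 0 and 0 in PTC. All 4 paralogs summed had 32 and 51 counts in LOVA, against 25 and 40 in PTC. Bcl2a1d was not called in the edgeR fit (adjusted p = 0.116). Without LOVA B, PTC A or PTC B, in turn, 1 gene was called, Bak1, with 4.6%, 4.52% and 13.9% of all genes called. Without LOVA A 5 were called (39.8%), and without NTC A or NTC B 3 (18.4% and 17.6%).

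LOVA against NTC asks what lovastatin changed in medium without GDNF. No family gene passed the test, as no gene of the whole table did (0% of genes tested called), and the family's median log2 fold change was -0.12 (-0.02 over the 9 genes other than Bcl2a1d). At an unadjusted p under 0.05 in the edgeR fit there was 1 of those 9, Bcl2a1b, against 3.48% of all genes tested. Bcl2a1d also had such a p, but since it passed the filter only through NTC, where it is high, its low LOVA counts are given as a description. DESeq2 called Bcl2a1b lower (adjusted p = 0.0265), with 0.583% of its genes called, and limma-voom did not call it, with 0.0248% called. The edgeR test with no filter on low counts also called Bcl2a1b lower (adjusted p = 0.00112), with 0.795% of genes called. Over 14 alternatives the log2 fold change of Bcl2a1b ran from -2.78 to -1.51, and the gene was called in 3 of them.

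Bcl2a1b had 1.78 and 4.30 CPM in LOVA, against 10.7 and 13.8 CPM in NTC, with log2 fold change -2.02 (SE 0.47, adjusted p = 0.493). Bcl2a1d had 0 and 0 counts in LOVA, against 9 and 55 counts in NTC, at least 19.2-fold lower in LOVA with that same floor of 3 counts for the group. That bound rests on NTC B: it is 6.30-fold with NTC B left out and 28.9-fold with NTC A left out. It covers counting error only, and the split of reads between the near-identical copies is uncertain. Both LOVA libraries lay below both NTC libraries in Bcl2a1b and in Bcl2a1d. The 4 paralogs summed had 32 and 51 counts in LOVA, against 143 and 279 in NTC, and the sum was not called (-2.15, adjusted p = 0.377).

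The other genes lay near 0 between these groups. The effectors Bak1 and Bax had log2 fold changes of -0.02 (95% interval -0.996 to 0.964) and -0.26 (-0.61 to 0.10), and Bak1 turned positive without LOVA A (0.33) or NTC B (0.36). Bcl2, Bcl2l1 and Mcl1 were at -0.01 (-1.11 to 1.10), -0.24 (-0.60 to 0.12) and -0.23 (-0.72 to 0.27); Bcl2 was at 0.057 when germ cell genes set the library scale. Bbc3, Pmaip1 and Bcl2l11 were at 0.28 (-0.49 to 1.05), 0.18 (-0.38 to 0.73) and 0.23 (-0.43 to 0.88). Of these 8 intervals, those of Bcl2 and Bbc3 reached a 2-fold change. The CPM of the groups did not overlap for 5 of the 10 genes, against 25.6% of all genes tested. Bcl2a1d is among the 5 only as a description, since it passed the filter through NTC, where it is high. The others were Bcl2a1b, Bcl2l1 and Bax, lower in LOVA, and Bbc3, higher in LOVA. For Bbc3, 6.12 and 5.85 CPM in LOVA stood against 5.74 and 4.13 CPM in NTC.

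Marker RNA of other cells moved beside some of these genes, and the levels were therefore also set against marker counts of the same library. Per 1000 counts of the 14 macrophage markers, Bcl2a1b had 3.94 and 7.20 counts in the LOVA libraries, 5.08 and 4.87 in the NTC libraries, and 4.31 and 5.31 in the PTC libraries. All groups overlap on this scale, where the highest library was 1.83 times the lowest, while in CPM it was 10.5 times the lowest. With Lyz2, the most abundant of these markers, left out, the ratio of highest to lowest was 2.18. On that scale Bcl2a1b had 15.0 and 26.8 counts in LOVA, 19.5 and 18.1 in NTC, and 12.3 and 16.0 in PTC. There NTC lay above PTC with no overlap, while LOVA overlapped both. Per 1000 pan-germ-cell counts it was 24.0, and per 1000 feeder counts 7.36. The macrophage markers themselves had a median log2 fold change of 2.80 in NTC minus PTC, with 14 of 14 called higher, 0.66 in LOVA minus PTC and -2.21 in LOVA minus NTC. A1 is expressed in several blood cell lineages, and 9 granulocyte and mast cell markers took at most 3.14e-04% of counts in any library.

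**Figure D3:**
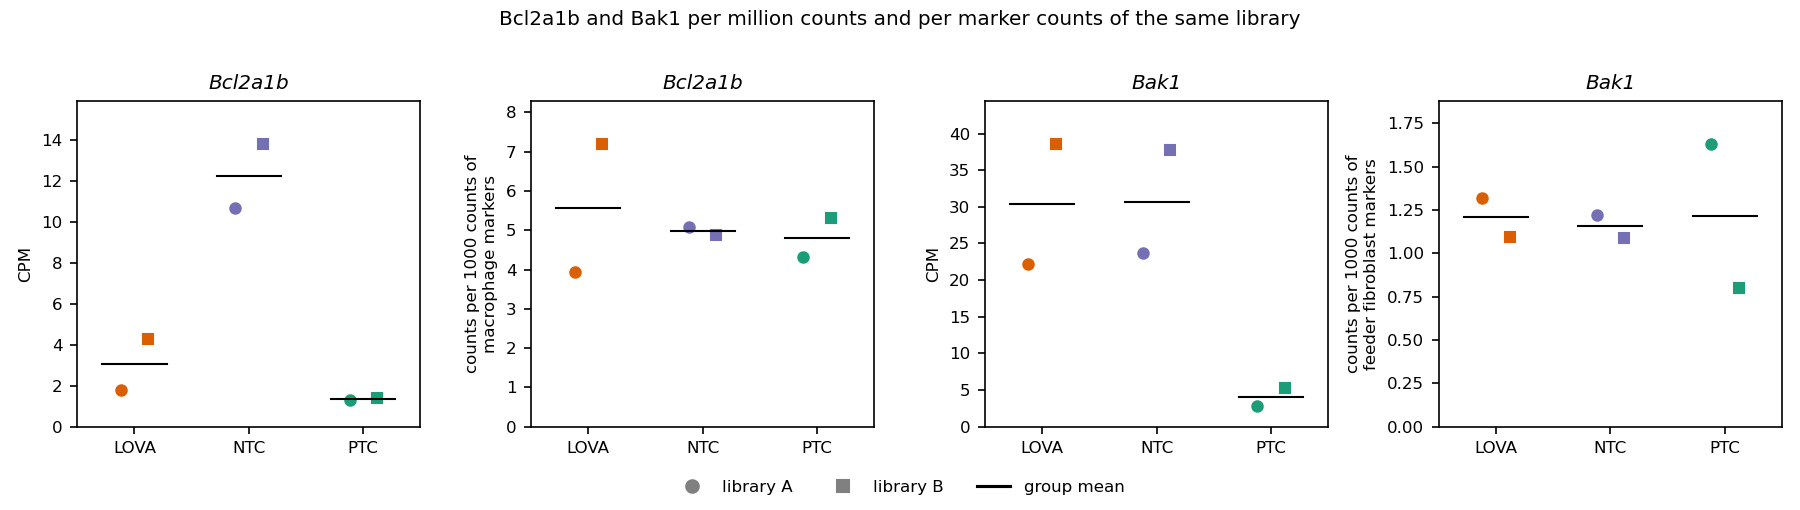
Bcl2a1b in CPM and per 1000 counts of macrophage markers, and Bak1 in CPM and per 1000 counts of feeder fibroblast markers (y axes from 0), in LOVA, NTC and PTC; circles are A libraries, squares B libraries and lines group means. The groups that differ in CPM overlap once each gene is divided by those markers, with Bcl2a1b between 3.94 and 7.20 and Bak1 between 0.801 and 1.63. With Lyz2 left out of the macrophage markers (not drawn), Bcl2a1b was higher in NTC than in PTC with no overlap.

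Bak1 kept a comparable ratio to the fibroblast markers. Per 1000 counts of the 19 feeder markers it had 1.32 and 1.09 counts in LOVA, 1.22 and 1.09 in NTC, and 1.63 and 0.801 in PTC. The groups overlap, and the highest library was 2.04 times the lowest, against 14.0 times in CPM. Bak1 was also higher in the B than in the A library of every group, by 0.80 in LOVA, 0.67 in NTC and 0.95 in PTC (log2), as were the summed feeder markers, by 1.07, 0.84 and 1.98. So were Bcl2l1, Mcl1, Bcl2a1b, Bax and Bcl2l11, by 0.42, 0.28 and 0.27 in the case of Mcl1, so this order is not particular to Bak1. Bcl2 had a spread of 3.52 times per feeder count and 8.0 times in CPM. For Bax, Bcl2l1, Mcl1, Pmaip1 and Bcl2l11 the spread was wider per feeder count, per macrophage count and per germ cell count than in CPM. Bbc3 had 1.49 and 2.38 counts per 1000 germ cell counts in LOVA, 1.60 and 1.62 in NTC, and 1.18 and 1.13 in PTC. On that scale Bbc3 was lowest in PTC, where it had been highest in CPM. What part marker RNA had in these results was not tested.

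When the pan-germ-cell genes set the library scale, the log2 fold changes of all genes moved by a median of 0.98 in NTC minus PTC, 0.93 in LOVA minus PTC and -0.05 in LOVA minus NTC. All 10 genes were then positive in NTC minus PTC, with 8 called higher (28.5% of all genes called higher), and Bbc3 turned to 0.47 (adjusted p = 0.386). The 8 include Bcl2a1d, which passed the filter on low counts only through NTC, where it is high. In LOVA minus PTC Bbc3 turned to 0.73 (adjusted p = 0.204) on that scaling, and 5 genes were called higher (25% of all genes), Bax joining the 4.

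Differences between family genes within a library depend on how libraries are scaled only through the prior count of 2. This matters for low counts: Bax minus Bcl2 in PTC A was 6.99, and 7.10 from raw counts with a pseudocount of 1. They are given for 7 pairs. With 2 libraries against 2 the smallest p of a two-sided exact permutation test is 0.333, so none is given. The log2 CPM of Bax minus that of Bcl2 was 5.56 and 4.63 in LOVA, 5.17 and 5.37 in NTC, and 6.99 and 6.47 in PTC. It was thus lower in all 4 libraries without GDNF than in PTC, by 1.64 in LOVA and 1.46 in NTC on average. Bax minus Bcl2l1 went the other way, with 0.46 and 0.40 in LOVA, 0.45 and 0.44 in NTC, and 0.13 and 0.18 in PTC. Bax minus Mcl1 was lower than in PTC in both other groups, with mean differences of -0.42 in LOVA and -0.40 in NTC.

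**Figure D4:**
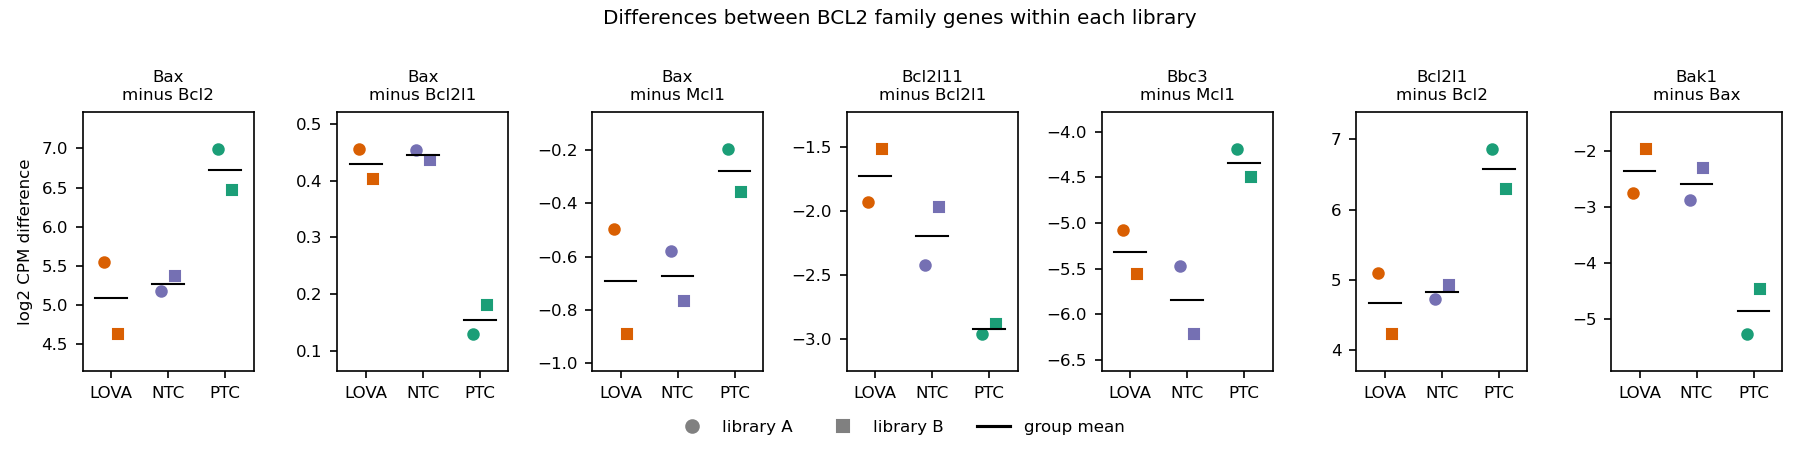
Difference in log2 CPM between 2 genes of the same library (y axis, a scale of its own in each panel) for 7 pairs, in LOVA, NTC and PTC; circles are A libraries, squares B libraries and lines group means. In every panel both PTC libraries lie apart from the 4 other libraries, above them for Bax minus Bcl2 and below them for Bak1 minus Bax. In CPM, 77.6% of all single genes tested did not overlap in NTC minus PTC and 76.3% in LOVA minus PTC. The share among other gene pairs was not computed.

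Bak1 minus Bax was -2.75 and -1.97 in LOVA, -2.87 and -2.30 in NTC, and -5.28 and -4.47 in PTC, so Bak1 gained on Bax by 2.51 in LOVA and 2.29 in NTC relative to PTC. Bcl2l11 minus Bcl2l1 was -1.92 and -1.52 in LOVA, -2.41 and -1.97 in NTC, and -2.96 and -2.88 in PTC. This pair was the only one of the 7 whose LOVA and NTC libraries did not overlap, and the gap between LOVA A and NTC B was small against the spread within either group. In CPM, 25.6% of all single genes tested did not overlap between LOVA and NTC. Bbc3 minus Mcl1 was lower than in PTC by 0.98 in LOVA and by 1.5 in NTC.

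The wider death pathway was described from lists of 57 genes around the family, of which 49 were tested. In NTC minus PTC 18 were called higher and 5 lower, against 34.5% of all genes called in either direction, with a median log2 fold change of 0.14. In LOVA minus PTC 19 were called higher and 4 lower, against 30.6% of all genes in either direction, and in LOVA minus NTC none was called, against 0% of all genes, with none at an unadjusted p under 0.05 in the edgeR fit. Of 4 other survival paralogs only Bcl2l2, which encodes BCL-W, a protein needed for spermatogenesis in mice, could be tested. It had 74.6 and 86.8 CPM in NTC, against 12.5 and 20.4 CPM in PTC, and rose by 2.29 (SE 0.30, adjusted p = 0.0087). In LOVA it had 58.0 and 81.5 CPM and was called higher than in PTC (2.08, SE 0.30, adjusted p = 0.0167). Among 6 other effector and BH3-only genes 1 rose in NTC, the BH3-only Bad, with 27.2 and 28 CPM in NTC, against 7.59 and 10.1 CPM in PTC (1.64, SE 0.25, adjusted p = 0.00978). The median of this list was -0.42. In CPM 4 of the 6 were lower in NTC with no overlap, against 38.5% of all genes tested. These were Bid, Bik, Bmf and Hrk, none of them called. Bmf was called lower in LOVA than in PTC (-0.61, SE 0.18, adjusted p = 0.0416).

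Of 7 tested BCL2-like and mitochondrial channel genes 3 rose in NTC, led by the outer membrane channels Vdac1 (1.86) and Vdac2 (1.12), the second of which binds BAK1. Of 10 apoptosome and caspase genes 3 rose and 3 fell in NTC, with the protease Htra2 (1.47) and the executioner caspase Casp6 (1.26) the largest. The share of all genes called in this contrast was 21.5% higher and 12.9% lower, and several of these lists lie near it. The caspase inhibitors had 1 of 5 called, Birc3 (1.65), an NF-kB target. In the death receptor arm 5 of 8 tested genes rose, led by the receptors Fas (3.55, SE 0.47) and Tnfrsf1a (2.73, SE 0.43). Of 12 tested regulators 4 rose and 2 fell. They included the NF-kB inhibitor Nfkbia (2.85) and Trp63, a p53 relative with 11 and 6 counts in LOVA, 4 and 25 in NTC, and 1 and 0 in PTC, too few for a fold change. The feeder share lay above that of PTC in all 4 libraries without GDNF beside these changes, and its part in them was not tested.

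The genes most like each called member over the 6 libraries were sought among 11360 or fewer genes of at least 5 CPM, by Pearson correlation of log2 CPM, as a description. For Bcl2a1b they were Stab1 (0.997), a scavenger receptor of macrophages, Ms4a6c (0.994) and Nckap1l (0.992), an actin regulator of blood cells. For Bak1 they were Emp2, Man2a2 and Cd81, for Bcl2 Pex2, Pgrmc1 and Isca2, and for Mcl1 Dab2, Marc2 and Ticam1. For Bax they included Atf3 and Thbs4, and for Bcl2l11 they were Jcad, Strn3 and Prickle2. With 6 libraries in 3 groups such values are high for many genes.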

How the data were processed

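Strand-specific paired-end RNA libraries were made from the cells, per the labels. The authors deposited whole-number counts for each Ensembl gene, not normalized; the submitters' processing notes name Trimmomatic, Bowtie2, RSEM, DESeq2 and mm10 without roles, and how counts were made or reads of near-identical genes divided is not given in the sources used here. Symbols and exon lengths came from GENCODE M21, which named 31363 of 31384 genes, and promoters from RefSeq on GRCm38.p6. The 10 genes, the lists and the tests were chosen with earlier results of these data known.

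Genes passing filterByExpr (16121) were scaled by TMM and fitted over all 6 libraries with 1 coefficient per group, using edgeR 4.0.16 in R 4.3.3 (robust quasi-likelihood F test, 3 residual degrees of freedom, common biological coefficient of variation 0.260). All 10 family genes passed the filter. Genes were called where p, adjusted over all genes tested by Benjamini-Hochberg, lay under 0.05; a standard error is the size of the log2 fold change divided by the square root of F. The method was tested on simulated data. Log2 CPM used a prior count of 2. A floor of 3 counts is between 0.128 and 0.258 CPM; floors and totals cover counting error only. Named pathway genes were the 2 called genes of each list with the largest change in NTC minus PTC. Genes lower in NTC without overlap were also named for the list of other effector and BH3-only genes. Of the 3 genes most like each called member, 1 for Bax is not reported here. Alternatives were DESeq2 1.42.0, limma-voom (limma 3.58.1), DESeq2 size factors, no filter, a block by letter, germ cell scaling, fits of the compared groups alone, each library left out, and summed Bcl2a1 paralogs.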

Additional observations from a re-analysis of the deposited data

How the results depend on the processing

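Of the 137 or 138 values of single genes per contrast under the alternatives, 112 in NTC minus PTC, 124 in LOVA minus NTC and 120 in LOVA minus PTC kept their direction and side of the threshold, while 14, 0 and 12 lost a call. The number of family genes called ranged from 0 to 7 in NTC minus PTC and from 1 to 5 in LOVA minus PTC when 1 library was left out, the lone library of a group being assumed to vary like the others. In LOVA minus NTC, 2 were called, both lower, with no filter and by DESeq2, and 1, Bcl2a1b, with a replicate block by column letter. The letters do not pair libraries in the labels. B minus A differences correlated between groups at 0.366, 0.293 and 0.247 over 16121 genes. The block called 7 family genes in NTC minus PTC (50% of all genes called) and the 1 in LOVA minus NTC (0.558%). In LOVA minus PTC it called 5 (48%), Bax (0.38, adjusted p = 0.0496) joining the 4 reported. Bcl2a1d was among the 7, and among those called without LOVA A, LOVA B or NTC A in NTC minus PTC. It passed the filter on low counts only through NTC, where it is high. Scaled to germ cell genes, the family medians were 2.08 in NTC minus PTC and 1.56 in LOVA minus PTC.

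Signs turned only in uncalled genes. In NTC minus PTC, Bbc3 was at 0.47 with germ cell scaling, and Pmaip1 was at -0.066 without NTC B and -0.11 without PTC B (highest 0.27, without PTC A). In LOVA minus NTC, Bcl2 was at 0.057 with germ cell scaling, 0.40 without LOVA A and 0.014 without NTC A (lowest -0.57); Bak1 was at 0.33 without LOVA A and 0.36 without NTC B (lowest -0.47); Pmaip1 was at -0.0021 without LOVA B (highest 0.33); Bcl2l11 was at -0.036 without LOVA B and -0.058 without NTC A (highest 0.53). The uncalled family median of LOVA minus NTC was 0.11 without LOVA A. In LOVA minus PTC, Bbc3 was at 0.73 with germ cell scaling. The causes were not tested. Bcl2a1d did not pass the filter without NTC B in any contrast, nor in either LOVA contrast when only the compared groups were fitted. Depth limits Bcl2, Bcl2a1d and Bcl2a1b most, with 41, 11 and 54 counts in PTC.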
